A study of Mus musculus with 18 samples.

Results

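The loci described here are those of 8 MAP kinase phosphatases of the dual-specificity family, Dusp1, Dusp2, Dusp4, Dusp5, Dusp6, Dusp8, Dusp10 and Dusp16, in lung endothelial cells (ECs) of mice. Overlapping ATAC-seq peaks (1 bp or more) of 18 samples were joined into regions, and the 47338 regions found in 2 or more samples were used. A region belonged to a locus when the transcription start site (TSS) nearest to its midpoint was that of the gene, or when it lay within the gene body. This gave 56 of the 47338 regions: 8 for Dusp1, 3 for Dusp2, 3 for Dusp4, 2 for Dusp5, 17 for Dusp6, 5 for Dusp8, 13 for Dusp10 and 5 for Dusp16.

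The study asked how aging alters the chromatin of lung ECs before and after injury. Young Sham (n = 5) and Young Bleo (n = 4) mice were 2 months old, Aged Sham (n = 4) and Aged Bleo (n = 5) mice 18 months old. All mice, controls included, were FVB females and males with a Col1α1-GFP reporter, which marks collagen-producing cells. Sham mice received PBS and Bleo mice 1 U/kg bleomycin into the trachea, and cells were taken at day 30. ECs were sorted as CD31+ cells after CD45+, EpCAM+ and GFP+ cells had been gated out, so that subtypes of ECs were pooled in each sample and a shift between subtypes cannot be told apart from a change within them. ATAC-seq cuts open chromatin with the transposase Tn5, and each sample is given as a list of peaks called in that sample alone. Strength is given as the within-list percentile of fold enrichment, from 0 to 100, where 0 stands for no peak and the strongest peak of a list is at 100. This rank needs no common scale between lists, but it gives no amount of accessibility, and a region without a peak may still be open below the detection limit.

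Dual-specificity phosphatases remove phosphate from both the threonine and the tyrosine of the activation loop of MAP kinases and so switch them off. Many of these genes are themselves induced by the kinases they act on, which closes a negative feedback loop. Dusp1, Dusp2, Dusp4 and Dusp5 encode inducible nuclear enzymes, Dusp6 a cytoplasmic enzyme selective for ERK, and Dusp8, Dusp10 and Dusp16 enzymes that act mainly on the stress kinases JNK and p38. In ECs, ERK signaling follows growth factors such as VEGF, and the stress kinases respond to inflammatory cues.

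Short stretches of the mm10 reference (RefSeq GRCm38) are shown for regions that the results below turn on, each 30 bases long, 5′ to 3′, read on the strand on which the motif was found. Capitals mark the motif: TGACGTC is the core of the cAMP response element (CRE), TGANTCA the AP-1 site, CAGGAAG an ERG core and CCGGAAG the ETS core common at promoters. The mice were FVB, so the sequence of their own genome was not read. The first group is from the start sites of Dusp1 and Dusp8, where CRE cores were repeated, and from the strongest distal region of Dusp1.
Dusp1 TSS, chr17:26508597-26508626: tgaccgggcggTGACGTCacccgccctacc
Dusp1 TSS, chr17:26508645-26508674: tcctaggccgaTGACGTCtttgcttttggc
Dusp8 TSS, chr7:142095329-142095358: gaaaaagccccTGACGTCacctgcagccaa
Dusp8 TSS, chr7:142095373-142095402: tcgggggcaggTGACGTCagcggagcgggc
Dusp1 +43.4 kb, chr17:26465250-26465279: tgtggatgtgcTGACGTCaaaacttgtccc

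The second group is from distal regions of Dusp5, Dusp6, Dusp10 and Dusp16. The regions Dusp10 +226.9 kb and Dusp16 +40.9 kb are among those that passed a test between groups, and the others are the strongest distal regions of their loci.
Dusp10 +226.9 kb, chr1:184261388-184261417: acccatcgccaTGACTCActtttagggact
Dusp16 +40.9 kb, chr6:134751640-134751669: agactacacatTGAATCAtctcttatcaca
Dusp6 +16.5 kb, chr10:99279665-99279694: gggctgtcaagCAGGAAGtatttagtaaac
Dusp10 +255.6 kb, chr1:184289969-184289998: aaagacaattaCAGGAAGatcaaattatgc
Dusp5 -28.5 kb, chr19:53500556-53500585: gcccatctgctCCGGAAGagcgtggcctgg

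Windows of 200 bp centered on the highest summit of each region were searched for these motifs in both orientations. An AP-1 site was found in 9 of the 56 regions (16.1%, against 8.72% of all 47338 regions), none of them at a start site. Outside promoters these were 9 of 50 regions, against 10.3% of all regions outside promoters. The CRE core was found in 4 regions (7.14% against 2.34%), at the start sites of Dusp1 and Dusp8, just upstream of that of Dusp4 and at Dusp1 +43.4 kb. These were 3 of 6 promoter regions (5.36% of all promoter regions held it) and 1 of 50 outside promoters (1.53%). The ERG core was found in 15 regions (26.8% against 20%), of which 14 were among the 50 outside promoters (22.7% of all regions outside promoters held it). The GC box core GGGCGGG was found in 8 regions (14.3% against 17.3%), and it was present in 5 of the 6 regions annotated as promoters, where 48.1% of all promoter regions held it. The ETS core CCGGAAG was found in 3 regions (5.36% against 6.46%) and the forkhead core GTAAACA in 3 (5.36% against 4.43%). The regions Dusp2 -21.4 kb, Dusp6 -68.4 kb, Dusp8 -2.7 kb, Dusp8 +10.3 kb, Dusp8 +15.7 kb and Dusp10 +31.8 kb, which also passed a test between groups, held none of these motifs nor the forkhead core GTAAACA in these windows. A match gives letters in the reference and no evidence of binding.

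The lists held 21050 to 40883 peaks, with fewer in Aged Sham (28882 ± 3383, SD, n = 4) and more variable numbers in Aged Bleo (31093 ± 8076, n = 5) than in Young Sham (35239 ± 3500, n = 5) and Young Bleo (36699 ± 3079, n = 4). The background coverage of a library, in fragments, lay between 1.26 and 1.78 in the young groups and between 1.02 and 1.60 in the aged groups. Young Sham samples were all sequenced in lane 8 and no lane held both Young Sham and an aged sample, so a within-lane value of the comparisons of aged mice with Young Sham cannot be had. The start sites of 7 to 10 of 10 EC markers carried a peak in each sample, those of 0 of 8 leukocyte markers did so in any, and those of 1 of 8 epithelial markers (Foxj1) and 1 of 8 mesenchymal markers (Pdgfra) did so in all 18. The defining markers Ptprc, Epcam and Col1a1 had no peak at their start sites.

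The 8 loci differed in how their open regions were arranged. Dusp6 and Dusp10 were surrounded by many distal regions, which at Dusp6 reached from 68.4 kb upstream to 160.4 kb downstream of the TSS and at Dusp10 to 255.6 kb downstream. Dusp5 had only its start site and 1 region 28.5 kb upstream. Of the 56 regions, 34 were intergenic (60.7%, against 34.9% of all regions), 12 intronic (21.4% against 36.9%), 6 in promoters (10.7% against 21.3%), 3 in UTRs and 1 in an exon, and 40 lay over 10 kb from the nearest TSS (71.4% against 54.2%). A peak was present in all 18 samples at 20 regions (35.7% against 36.8%), and in 2 to 5 samples at 14 regions (25% against 23.4%). The median width was 460 bp for the 56 regions and 440 bp for all regions.

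**Figure D1:**
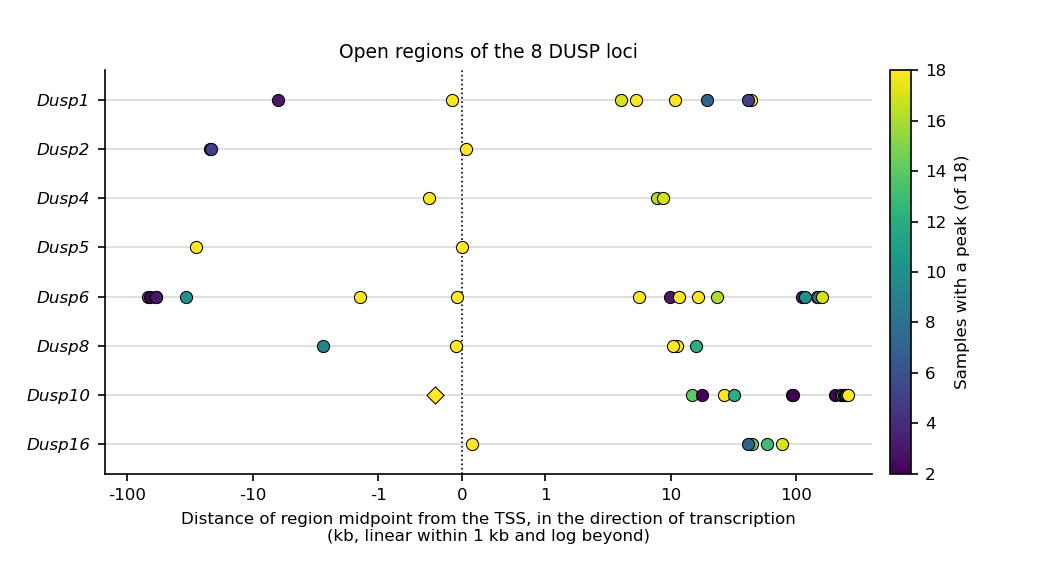
Open regions of the 8 loci by the distance of their midpoint from the TSS in kb (linear within 1 kb of the TSS and log beyond it), with color for the number of samples with a peak. The diamond at Dusp10 is the region over its start site, whose midpoint is nearest to the TSS of another gene. Each locus has a region with a peak in all 18 samples at its start site, or at Dusp4 just upstream of it, and the regions with few samples lie at a distance.

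In single samples, between 25 and 51 of the 56 regions carried a peak. The mean was 39.8 ± 5.67 regions (SD, n = 5) in Young Sham, 40.2 ± 1.71 in Young Bleo (n = 4), 35 ± 5.66 in Aged Sham (n = 4) and 36.0 ± 10.2 in Aged Bleo (n = 5), and the ranges of all 4 groups overlapped. The lowest number was in Aged Bleo 4, which had the shortest list, and the highest in Aged Bleo 2, which had the longest. With the 21050 strongest peaks of each list taken, 24 to 30 regions carried a peak in every sample.

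**Figure D2:**
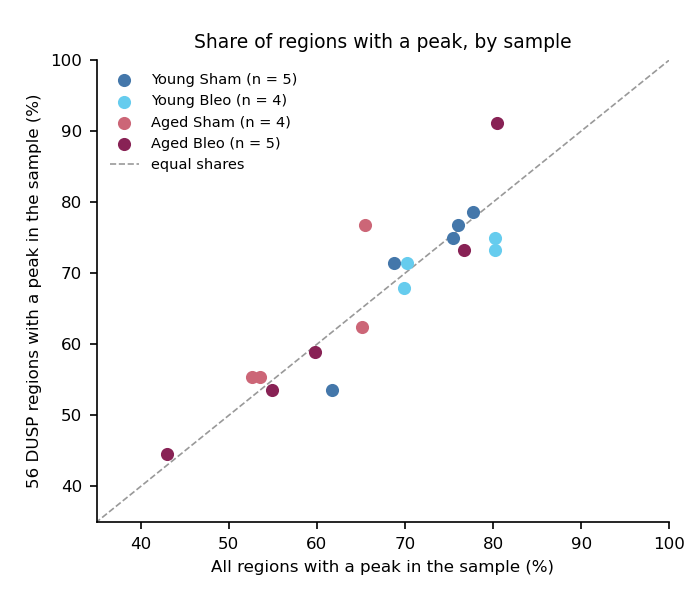
Percentage of the 56 DUSP regions with a peak (vertical axis) against that of all 47338 regions (horizontal axis), 1 point per sample, colored by group, with a dashed line for equal shares. The points follow the line from 43.0% and 44.6% in Aged Bleo 4 to 80.4% and 91.1% in Aged Bleo 2.

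The start sites of 7 of the 8 genes lay within a peak in every sample. For 6 of them the midpoint of that region was nearest to the TSS of the gene itself. No peak covered the start site of Dusp4 in any sample, and its nearest region, chr8:34806873-34807570, ended upstream of the TSS at position 34807610 and carried a peak in all 18. This upstream region is the one given for the Dusp4 start site in the ranking and the plots. At Dusp10 the region over the TSS (chr1:184033460-184034660) had its midpoint nearer to the TSS of 1700056E22Rik, so it was not among the 56 and is given here in addition.

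Ranked by the mean over 18 samples, the start site of Dusp10 was strongest, at percentile 92.1 ± 2.11 (SD, n = 18). Dusp8 followed at 88.3 ± 3.16, Dusp5 at 86.5 ± 4.59, Dusp16 at 84.3 ± 5.59 and Dusp4 at 78.9 ± 3.36. Dusp6 at 61.7 ± 3.80, Dusp1 at 58.4 ± 5.43 and Dusp2 at 54.8 ± 13.1 formed a lower group. The step from Dusp4 to Dusp6 was seen in 18 of 18 samples, with a mean difference of 17.3 percentile points. Dusp10 was above Dusp8 in 16 of 18 samples, by 3.78 ± 3.18 points (SD). For the remaining pairs of neighbors the mean difference was smaller than its SD over samples. Dusp16 was above Dusp4 in 15 of 18 samples (5.33 ± 5.87 points) and Dusp6 above Dusp1 in 14 (3.31 ± 6.41). Dusp5 was above Dusp16 in 12 samples (2.26 ± 6.04), and Dusp8 above Dusp5 (1.77 ± 5.54) and Dusp1 above Dusp2 (3.56 ± 13.6) in 10 each.

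Fold enrichment compares the summit with the background around it, and for Dusp1 and Dusp6 this measure and the number of fragments ranked the start sites differently. The region at the Dusp1 TSS had 178 to 424 fragments at its summit and a fold enrichment of 9.09 to 13.4. By -log10 p it stood at percentile 91.2 on average, and the Dusp6 TSS at 87.8, above Dusp5 (86.4), Dusp16 (84.8) and Dusp4 (84.0), so that the step from Dusp4 to Dusp6 turns with this measure. The start site of Dusp2 was low on both measures, with 16 to 61 fragments and a mean percentile of 51.5 by -log10 p.

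**Figure D3:**
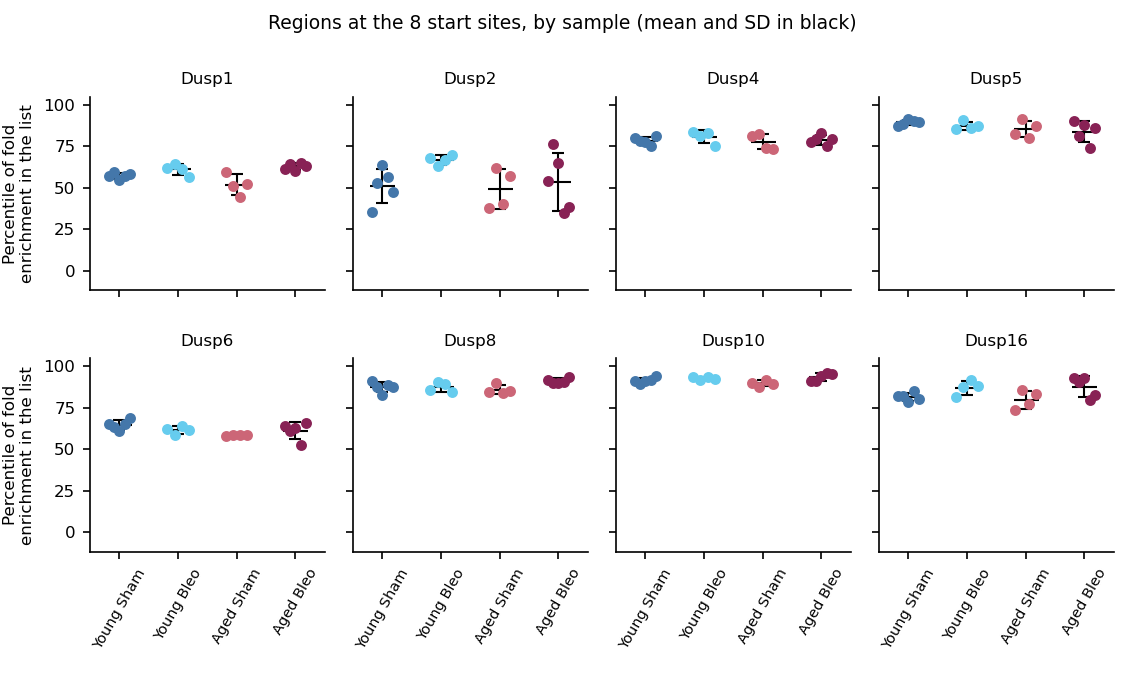
Within-list percentile of fold enrichment of the region at each of the 8 start sites (for Dusp4 just upstream of it), 1 point per sample, with the mean and SD of each group in black (Young Sham n = 5, Young Bleo n = 4, Aged Sham n = 4, Aged Bleo n = 5). Dusp4, Dusp5, Dusp8, Dusp10 and Dusp16 lie at percentile 73.5 or higher in every sample, and Dusp2 spreads from 34.5 to 76.2.

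Dusp1, on chromosome 17, encodes an inducible nuclear phosphatase of JNK, p38 and ERK. The region at its TSS (chr17:26507896-26509270) stood at percentiles 57, 59.5, 54.5, 56.9 and 58.1 in Young Sham 1 to 5. It stood at 62.0, 64.5, 61.3 and 56.3 in Young Bleo 1 to 4. It stood at 59.7, 51.0, 44.1 and 52.0 in Aged Sham and at 61.2, 64.4, 60.2, 65.2 and 63.0 in Aged Bleo. Every Aged Bleo sample was thus above every Aged Sham and every Young Sham sample, and Young Bleo overlapped with all 3 other groups.

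The strongest distal region of Dusp1 lay 43.4 kb downstream (chr17:26464691-26465492, intergenic) and varied little, from 75.1 to 90.3 over all samples. Between it and the gene, the regions at +10.8 kb and +5.3 kb carried a peak in all 18 samples and that at +4.0 kb in 17. At +4.0 kb up to 203 fragments were counted at the summit while the percentile never passed 17.9. A region 6.3 kb upstream with 2 AP-1 sites carried a peak in Aged Sham 2 and in 2 of 5 Aged Bleo samples and in no young sample.

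Dusp2, on chromosome 2, encodes an inducible nuclear phosphatase best known from leukocytes. The region at its TSS (chr2:127335850-127336573) reached 35.6 to 63.5 in Young Sham, 63.1 to 69.8 in Young Bleo, 37.6 to 61.6 in Aged Sham and 34.5 to 76.2 in Aged Bleo. Young Bleo samples were at the upper end, and the Aged Bleo samples covered the whole range.

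Upstream of Dusp2 lay a pair of neighboring regions, at -22.0 and -21.4 kb. The region at -21.4 kb (chr2:127314477-127315069, intergenic) carried no peak in any Young Sham or Aged Sham sample. In Young Bleo it stood at 31.6, 42.9 and 44.7 in samples 1, 3 and 4 and had no peak in sample 2. In Aged Bleo it stood at 12.1 and 9.35 in samples 1 and 2, and samples 3 to 5 had no peak. The peaks were thus found in bleomycin-treated mice of both ages, on 10 to 26 fragments at the summit. The adjacent region at -22.0 kb, which holds an AP-1 site and 2 ERG cores, carried a peak in 2 of 4 Young Bleo and 2 of 5 Aged Bleo samples and in no sham sample.

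Dusp4, on chromosome 8, encodes an inducible nuclear phosphatase of ERK and JNK. Its promoter region was stable, between 73.5 and 83.8 in all samples, and group means lay between 77.9 ± 4.75 (Aged Sham, SD, n = 4) and 80.9 ± 3.95 (Young Bleo, n = 4). Its intronic regions at +7.8 kb and +8.7 kb were weaker and lacked a peak in 2 and 1 of the 18 samples. Those samples were all aged, namely Aged Bleo 4 and 5 at +7.8 kb and Aged Sham 1 at +8.7 kb, and all 3 lists are among the 4 shortest.

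Dusp5, on chromosome 19, encodes a nuclear phosphatase selective for ERK. The region at its TSS (chr19:53528758-53529549) was among the strongest, at 89.4 ± 1.48 (SD, n = 5) in Young Sham, 87.5 ± 2.43 in Young Bleo (n = 4), 85.4 ± 5.04 in Aged Sham (n = 4) and 83.8 ± 6.47 in Aged Bleo (n = 5). The region at -28.5 kb (chr19:53500352-53500989) stood at 67.8, 64.3, 60, 58.4 and 43.5 in Young Sham. It stood at 21.1, 38.9, 56.6 and 49.7 in Young Bleo, at 33.7, 54.5, 27.5 and 36.5 in Aged Sham, and at 50, 42.7, 50.6, 50.9 and 42.2 in Aged Bleo. The Young Sham samples 1 to 4 were above all 13 samples of the other groups, and Young Sham 5 lay within their range.

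Dusp6, on chromosome 10, encodes the cytoplasmic ERK phosphatase and is a well-known feedback target of ERK. The region at its TSS (chr10:99262854-99263502) stood between 60.8 and 69.2 in Young Sham, 58.8 and 64.2 in Young Bleo, 57.9 and 58.9 in Aged Sham, and 52.6 and 65.7 in Aged Bleo. Every Aged Sham sample was below every Young Sham sample. Around it, a cluster with a peak in all 18 samples was formed by the regions at -1.4 kb, +5.6 kb, +11.6 kb and +16.5 kb. The last of these (chr10:99279382-99280040, intergenic) was the strongest of the locus, at 72.3 on average, and the ERG core shown above lies in it.

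The far regions of Dusp6 were less constant. At +146.6 kb a peak was present in all samples but its percentile ran from 16.5 (Aged Bleo 4) to 94.3, with 79.3 to 90.1 in Young Bleo and 39.4 to 77.2 in Young Sham. The region at -68.4 kb (chr10:99194676-99195017) lies in an intron of Poc1b. It stood at 34.6, 11.6, 21.8 and 26.5 in Young Sham 1 to 4, at 11.8 and 21.5 in Young Bleo 3 and 4, and at 10, 24.3 and 22.4 in Aged Sham 1 to 3. No peak was found in the remaining samples of these groups, which are Young Sham 5, Young Bleo 1 and 2 and Aged Sham 4, nor in any of the 5 Aged Bleo samples. These peaks rested on 10 to 16 fragments.

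Dusp8, on chromosome 7, encodes a phosphatase of JNK and p38. The region at its TSS (chr7:142094904-142095806) stood at 82.7 to 91.2 in Young Sham, 84.6 to 90.6 in Young Bleo, 84.0 to 89.9 in Aged Sham and 90.1 to 93.8 in Aged Bleo. The regions of the gene that passed a test between groups lay elsewhere, in its body and upstream.

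At the end of Dusp8, 15.7 kb from the TSS and in its UTR (chr7:142079375-142079701), the percentiles were 56.6, 39.3, 41.3, 29.3 and 21.2 in Young Sham 1 to 5. In Young Bleo they were 14.2, 21.2, 18.3 and 5.73. In Aged Sham they were 30 in sample 2 and 6.45 in sample 4, with no peak in samples 1 and 3, and in Aged Bleo only sample 2 had a peak, at 6.01. The lowest Young Sham sample was level with the highest of Young Bleo, Aged Sham 2 stood above the lowest 2 Young Sham samples, and the aged groups overlapped with each other.

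The intronic Dusp8 region at +10.3 kb (chr7:142084715-142085209) carried a peak in all samples, on 35 to 85 fragments. It stood at 66.9, 61.9, 58.7, 64.8 and 63.7 in Young Sham and at 48.9, 48.2, 43.6 and 56.2 in Young Bleo, without overlap. Aged Sham samples were at 59.8, 63.8, 57.1 and 49.4 and Aged Bleo samples at 50.5, 58.8, 57.9, 53.2 and 47.2, and both aged groups overlapped with both young groups. The weak region 2.7 kb upstream (chr7:142097884-142098164) reached at most 6. It carried a peak in 4 of 5 Young Sham, 4 of 4 Young Bleo, 0 of 4 Aged Sham and 1 of 5 Aged Bleo samples, and although it had 37 to 64 fragments at its summit it was among the weakest of the list by fold enrichment.

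Dusp10, on chromosome 1, encodes a phosphatase of JNK and p38. Its promoter ranked among the strongest, with 267 to 639 fragments. The strongest of the 13 regions of its locus lay 255.6 kb downstream (chr1:184289624-184290398, intergenic), between 84.7 and 97.5 in all samples.

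The intronic Dusp10 region at +31.8 kb (chr1:184066002-184066435) carried a peak in only 1 Young Sham sample, at 13.6. It stood at 55.1, 67.7, 61.4 and 43.2 in Young Bleo. In Aged Sham it stood at 35.4, 70.8 and 30.9 in samples 1, 2 and 4, and in Aged Bleo at 70.5, 80.6, 36.8 and 16.5 in samples 1 to 4, and Aged Sham 3 and Aged Bleo 5 had no peak. All Young Bleo samples were above all Young Sham samples, and both aged groups spread from no peak to values above those of Young Bleo.

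A different pattern was seen at the intergenic region 226.9 kb downstream of Dusp10 (chr1:184260933-184261585), which holds the AP-1 site shown above. It stood at 51.1, 11.6 and 32.2 in Young Sham 1, 2 and 4, with no peak in samples 3 and 5, and at 27.3, 27.6, 14.8 and 11.9 in Young Bleo. It stood at 57.8, 83.0, 60.6 and 58.6 in Aged Sham and at 56.2, 74.1, 60.2, 58.5 and 38.1 in Aged Bleo. All Aged Sham samples were above all 9 young samples, and 4 of 5 Aged Bleo samples were as well. The fragments at its summit numbered 19 to 62 in the aged and 13 to 21 in the young samples with a peak.

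Dusp16, on chromosome 6, encodes a phosphatase of JNK and p38. The region at its TSS (chr6:134792002-134793003) stood between 78.6 and 85.3 in Young Sham, 81.3 and 91.6 in Young Bleo, 73.6 and 85.6 in Aged Sham and 79.8 and 93.3 in Aged Bleo. Its 4 other regions lay in the gene body, and that at +76.2 kb (chr6:134716173-134716654, in its UTR) was the strongest of them, with a peak in 17 samples. The intronic region at +40.9 kb (chr6:134751564-134751875) stood at 45.6, 30.2, 20.3 and 28.9 in Young Sham 1 to 4, with no peak in Young Sham 5 or in any Young Bleo sample. In Aged Sham 2 and 3 it stood at 8.52 and 36.1 and in Aged Bleo 2 at 31.2, and the 6 other aged samples had no peak. This is the region with the AP-1 match TGAATCA shown above, found with a pattern that leaves the central base open.

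**Figure D4:**
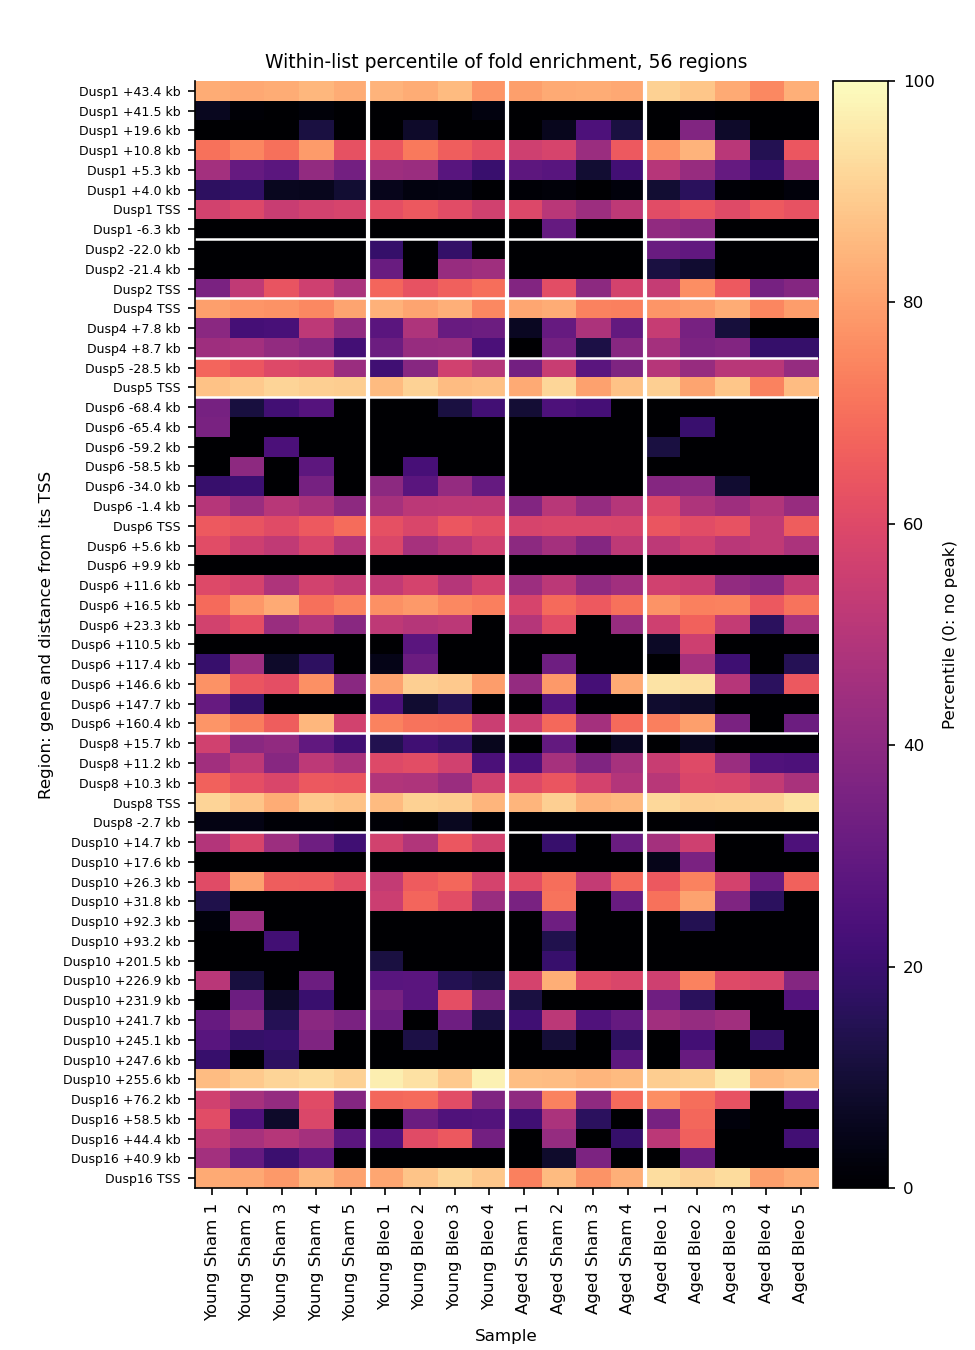
Within-list percentile of fold enrichment (color, 0 in black for no peak) of the 56 regions in rows, ordered by gene and position, in the 18 samples in columns, with white lines between groups and genes. The regions at the start sites of Dusp4, Dusp5, Dusp8 and Dusp16 and the distal regions Dusp1 +43.4 kb and Dusp10 +255.6 kb are bright in all samples, at percentiles from 73.5 to 97.5. Dusp10 +226.9 kb runs from 38.1 to 83.0 in the aged columns and from 0 to 51.1 in the young ones.

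The groups were compared with 2 tests run on all 47338 regions. Presence of a peak was compared by Fisher's exact test (two-sided), where a region was called at an unadjusted p of at most 0.05. Strength was compared by limma on the percentiles, where a region was called at a Benjamini-Hochberg adjusted p of at most 0.05. No region of the genome passed Fisher's exact test after adjustment in any comparison (lowest adjusted p = 0.535 to 1.00). The smallest p that the groups allow in this test is 0.00794. The comparisons with Young Sham share the same 5 control samples.

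**Figure D5:**
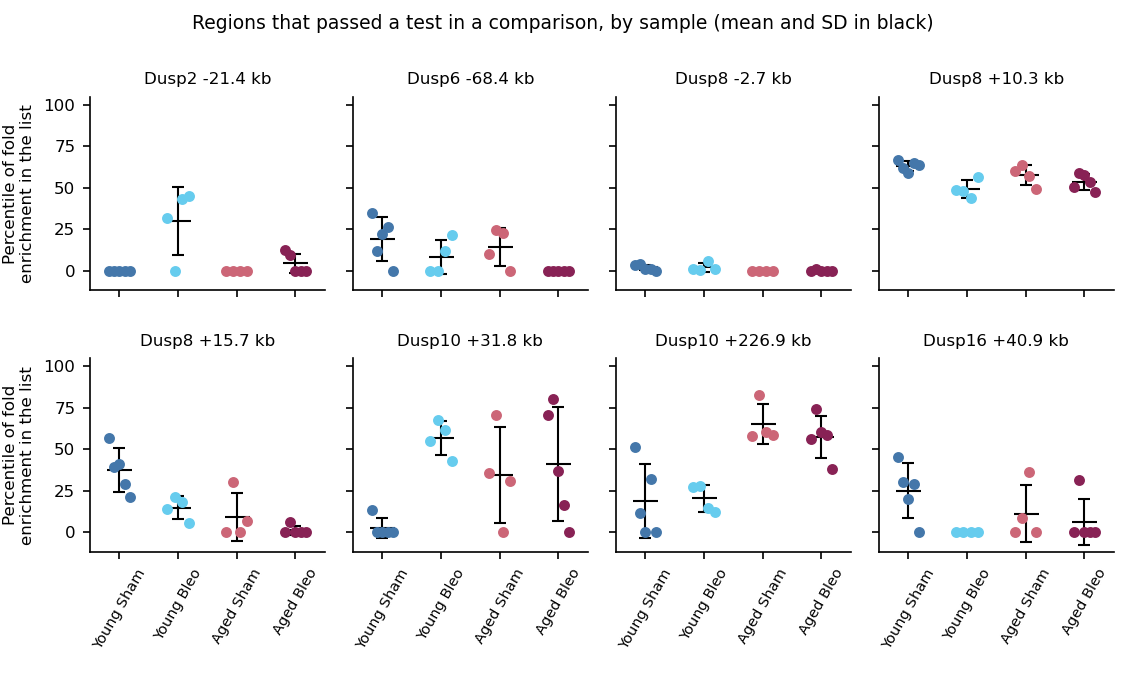
Within-list percentile of fold enrichment of the 8 regions that were called in at least 1 comparison, 1 point per sample (0 for no peak), with the mean and SD of each group in black (Young Sham n = 5, Young Bleo n = 4, Aged Sham n = 4, Aged Bleo n = 5). Dusp10 +226.9 kb is higher in the aged groups, Dusp8 +15.7 kb is highest in Young Sham, and Dusp2 -21.4 kb has no peak in either sham group.

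Aged Sham against Young Sham asks what differs with age before injury. Here Dusp10 +226.9 kb rose by 46.0 ± 9.82 percentile points (SE, limma adjusted p = 0.0226), and Dusp8 +15.7 kb fell by 28.4 ± 6.67 points (adjusted p = 0.0341). Dusp8 -2.7 kb was called by presence, from 4 of 5 Young Sham to 0 of 4 Aged Sham samples (Fisher's exact p = 0.0476). No start site of the 8 genes passed either test. At Dusp6 the start site (-6.20 ± 2.43 points) and the regions at +5.6 kb (-11.4 ± 3.33), +11.6 kb (-9.86 ± 3.80) and +16.5 kb (-8.89 ± 3.28) were all lower on average in Aged Sham, with limma adjusted p-values from 0.0810 to 0.181. The nearest region of the same cluster, at -1.4 kb, differed by -1.19 ± 3.52 points (adjusted p = 0.956). In all, 2 of 56 regions were called by limma (3.57%, against 2.70% of all regions) and 1 by Fisher's exact test (1.79% against 5.17%). The median difference was -4.77 points for the 56 regions and -4.13 for all regions, and 10 regions had an unadjusted limma p of at most 0.05 (17.9% against 18.6%), 9 of them lower in Aged Sham (16.1%, against 17.8% of all regions lower).

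With sequencing lane as a term in the model, neither limma call of this comparison held: the difference was 36.9 points at Dusp10 +226.9 kb (adjusted p = 0.614) and -39.7 at Dusp8 +15.7 kb (adjusted p = 0.412). No lane held both groups. This fit links them through Young Bleo 4, the only sample of its group in lane 8, and separates lane from age by that sample alone. With lists of equal length the difference at Dusp8 +15.7 kb was -6.57 points (adjusted p = 0.502), and the difference in presence at Dusp8 -2.7 kb was 0, as it was with a fold enrichment of at least 5. In lists of at least 28000 peaks the differences were 51.8 (adjusted p = 0.116) and -19.3 (adjusted p = 0.412), with 2 Aged Sham samples left. Without Young Sham 2 or any 1 of Aged Sham 1 to 3 the Dusp10 region was not called (40.0 to 48.4 points, adjusted p = 0.0533 to 0.0627), and the Dusp8 region was not called without any 1 of Young Sham 1 to 4 or Aged Sham 1, 3 and 4 (-30.5 to -23.7 points, adjusted p = 0.0503 to 0.117).

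Young Bleo against Young Sham asks how young ECs responded to injury. Dusp2 -21.4 kb rose by 29.8 ± 6.54 points (SE, limma adjusted p = 0.0217) and was called by presence as well (0 of 5 against 3 of 4 samples, Fisher's exact p = 0.0476). No sham sample had a peak at Dusp2 -21.4 kb, so it was kept as a region through treated samples alone. Against sham it could only be higher, and both of its calls are given as a description. Dusp8 +10.3 kb fell by 14 ± 3.28 points (adjusted p = 0.0292). By presence, Dusp10 +31.8 kb rose from 1 of 5 to 4 of 4 samples and Dusp16 +40.9 kb fell from 4 of 5 to 0 of 4 (p = 0.0476 each, Fisher's exact test). The difference in strength was 54.1 ± 15 points at Dusp10 +31.8 kb (limma adjusted p = 0.0620) and -25 ± 9.03 points at Dusp16 +40.9 kb (adjusted p = 0.160). In all, 2 of 56 regions were called by limma (3.57%, against 3.38% of all regions) and 3 by Fisher's exact test (5.36% against 5.94%), while 10 had an unadjusted limma p of at most 0.05 (17.9% against 16.8%). Over the 56 regions the median difference was -0.552 points, and over all regions 0.672.

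Young Bleo 4 is the only treated sample that shared lane 8 with the Young Sham samples. In that lane its percentile was 44.7 at Dusp2 -21.4 kb, where no Young Sham sample had a peak, and 43.2 at Dusp10 +31.8 kb, where the highest Young Sham sample was at 13.6. At Dusp8 +10.3 kb it was at 56.2, below the lowest Young Sham sample at 58.7. With lane as a term, the differences at Dusp2 -21.4 kb (44.7 points, limma adjusted p = 0.0800) and Dusp8 +10.3 kb (-7.04, adjusted p = 1.00) were not called. With all lists shortened to the same length the difference at Dusp2 -21.4 kb was 2.70 points (adjusted p = 0.652), that at Dusp8 +10.3 kb -23.3 points (adjusted p = 0.201), and Dusp16 +40.9 kb no longer differed in presence. Over all alternatives in processing, the limma call at Dusp2 -21.4 kb held in 2 of 6 (adjusted p = 0.0164 to 0.652) and that at Dusp8 +10.3 kb in 2 of 7 (adjusted p = 0.0283 to 1.00). Leaving out Young Bleo 1, 3 or 4 ended the call at Dusp2 -21.4 kb (24.8 to 29.2 points, adjusted p = 0.0505 to 0.0767), and leaving out Young Sham 1, 2 or 4 or Young Bleo 1, 2 or 3 ended that at Dusp8 +10.3 kb (-14.3 to -12.1 points, adjusted p = 0.0547 to 0.0986).

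Aged Bleo against Young Sham gave the same limma regions as the comparison of the sham groups, which shares the Young Sham samples. Dusp10 +226.9 kb rose by 38.4 ± 9.26 points (SE, limma adjusted p = 0.0239) and Dusp8 +15.7 kb fell by 36.3 ± 6.29 points (adjusted p = 0.00374). By presence, Dusp8 +15.7 kb fell from 5 of 5 to 1 of 5 samples and Dusp6 -68.4 kb from 4 of 5 to 0 of 5 (p = 0.0476 each, Fisher's exact test). The Dusp6 region differed by -18.9 ± 6.18 points in strength (limma adjusted p = 0.0850). In all, 2 of 56 regions were called by limma (3.57%, against 5.97% of all regions) and 2 by Fisher's exact test (3.57% against 3.21%), while 8 had an unadjusted limma p of at most 0.05 (14.3% against 21.9%). Over the 56 regions the median difference was -2.38 points, and over all regions -2.87.

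In lists of at least 28000 peaks, Dusp8 +15.7 kb still differed by -35.5 points (limma adjusted p = 0.0290), and Dusp10 +226.9 kb by 44.5 (adjusted p = 0.0601). With lane as a term the differences were -44.9 (adjusted p = 0.595) and 35.7 (adjusted p = 0.826). That fit links the 2 groups only through Young Bleo 4 and Aged Sham 4, each the only sample of its group in its lane. The Dusp8 call held without any 1 sample (adjusted p = 0.00106 to 0.0121), and with lists of equal length the difference was -7.65 points (adjusted p = 0.168), while Dusp6 -68.4 kb had the same share of samples with a peak in both groups. The Dusp10 call was lost without Young Sham 2, Young Sham 3 or Aged Bleo 4 (33.7 to 38.1 points, adjusted p = 0.0513 to 0.0630).

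Aged Bleo against Aged Sham asks how aged ECs responded to injury. No region of the 8 loci was called by limma (0%, against 0.0972% of all regions). At an unadjusted p of at most 0.05 there were 6 (10.7%, against 7.95%), 5 of them higher in Aged Bleo (8.93% against 4.98%). The smallest p of these was at the Dusp1 TSS, where Aged Bleo was higher by 11.1 ± 2.61 points (SE, limma adjusted p = 0.133) and above Aged Sham in 5 of 5 samples. The start sites of Dusp8 and Dusp16 were higher by 5.42 ± 2.02 (adjusted p = 0.450) and 7.90 ± 3.28 points (adjusted p = 0.531). By presence, Dusp6 -68.4 kb fell from 3 of 4 to 0 of 5 samples (Fisher's exact p = 0.0476), which is 1 of 56 regions (1.79% against 0.885%). With lists of equal length this difference was 0. Over the 56 regions the median difference in strength was 2.98 points, and over all regions 1.29.

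Aged Bleo against Young Bleo compares injured ECs of both ages. No region was called by limma (0%, against 0.932% of all regions), and 4 had an unadjusted p of at most 0.05 (7.14% against 15.8%). The Dusp10 +226.9 kb region was higher in Aged Bleo by 37.0 ± 9.82 points (SE, limma adjusted p = 0.0886) and Dusp2 -21.4 kb differed by -25.5 ± 6.54 points (adjusted p = 0.0782). By presence, Dusp8 +15.7 kb and Dusp8 -2.7 kb each fell from 4 of 4 to 1 of 5 samples (Fisher's exact p = 0.0476), which is 2 of 56 regions (3.57% against 2.57%). With lists of equal length the difference in presence was 0 at Dusp8 +15.7 kb and -25 percentage points at Dusp8 -2.7 kb (p = 0.444, Fisher's exact test), and with a fold enrichment of at least 5 it was 0 at Dusp8 -2.7 kb. Leaving out 1 sample kept each call in 1 of 9 cases. The median difference was -0.796 points for the 56 regions and -4.15 for all regions.

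Whether the response to bleomycin differed with age was tested as an interaction in the same limma model. No region of the 8 loci passed after adjustment (0%, against 0.142% of all regions), and 6 had an unadjusted p of at most 0.05 (10.7% against 6.99%). The interaction was positive at 4 of the 6 (7.14%, against 4.33% of all regions) and negative at 2 (3.57% against 2.67%). Among the 6, it was -25.5 ± 9.25 points at Dusp2 -21.4 kb (SE, adjusted p = 0.521), 26.4 ± 9.60 at Dusp5 -28.5 kb (adjusted p = 0.525) and -47.5 ± 21.3 at Dusp10 +31.8 kb (adjusted p = 0.696). Its median was 3.32 points over the regions of the 8 loci and 0.478 over all regions.

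The number of regions with a peak was also compared per gene, with an exact permutation test over samples. Dusp8 had 4.80 ± 0.447 such regions (SD, n = 5) in Young Sham, 5.00 ± 0 in Young Bleo (n = 4), 3.5 ± 0.577 in Aged Sham (n = 4) and 3.40 ± 0.894 in Aged Bleo (n = 5). The differences of -1.30 between the sham groups (exact permutation p = 0.0317) and of -1.40 between Aged Bleo and Young Sham (p = 0.0476) did not pass adjustment over all 17954 genes (adjusted p = 0.462 and 0.947), where 10% and 4.82% of genes were lower at an unadjusted p of at most 0.05. Aged Bleo also had 1.60 regions of Dusp8 fewer than Young Bleo (exact permutation p = 0.0476, adjusted p = 1.00, against 4.13% of genes). With lists of equal length the 3 differences were -0.550, -0.800 and -0.250, of which the second kept an unadjusted p of at most 0.05 (exact permutation p = 0.206, 0.0476 and 0.444). In lists of at least 28000 peaks they were -0.800, -1.13 and -1.33 (p = 0.143, 0.107 and 0.143, exact permutation test). Leaving out 1 sample kept them at that level in 3 of 9, 2 of 10 and 1 of 9 cases.

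Dusp2 had 1.25 regions more in Young Bleo than in Young Sham (exact permutation p = 0.0476, adjusted p = 0.627), where 5.37% of genes were higher. Its start site carried a peak in every sample, and its regions at -22.0 and -21.4 kb only in bleomycin-treated samples. Both distal regions were kept through those samples alone, so this difference could only be upward. With lists of equal length this difference was 0.450 (exact permutation p = 0.556), and leaving out 1 sample kept it in 1 of 9 cases. Dusp5 had its 2 regions in every sample of all groups. At Dusp6 the mean number was 11.4 ± 2.07 in Young Sham and 9 ± 1.41 in Aged Sham, a difference of -2.40 (exact permutation p = 0.127, adjusted p = 0.718).

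Other genes of the MAP kinase pathway were tested in the same fits, and the comparisons named share the Young Sham samples unless Aged Bleo is set against Aged Sham or Young Bleo. At the remaining MAP kinase phosphatases, Dusp7 and Dusp9, 12 regions were found. Against Young Sham, limma called 1 of them in Aged Sham (8.33%, against 2.70% of all regions), 1 in Young Bleo (8.33% against 3.38%) and 2 in Aged Bleo (16.7% against 5.97%). Fisher's exact test called 2 in Aged Sham (16.7% against 5.17%), 1 in Young Bleo (8.33% against 5.94%) and 0 in Aged Bleo (3.21% of all regions). A region in an intron 19.4 kb upstream of the Dusp7 TSS carried a peak in 5 of 5 Young Sham and in 0 of 4 Aged Sham and 0 of 4 Young Bleo samples. It fell by 37.2 points in each (limma adjusted p = 5.82e-04 and 4.59e-04), and fell by 29.6 points in Aged Bleo, with a peak in 3 of 5 samples (adjusted p = 0.00111). The intergenic region 24.5 kb downstream of the Dusp7 TSS had a peak in 5 of 5 Young Sham samples but only 1 of 4 in Aged Sham (Fisher's exact p = 0.0476), with a difference in strength of -31.0 points (limma adjusted p = 0.134). The Dusp9 start site fell by 31.1 points in Aged Bleo against Young Sham (adjusted p = 0.0144).

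Among the kinases, the start sites of 8 of 10 MAP kinases, 7 of 7 MAP kinase kinases and 14 of 14 MAP kinase kinase kinases carried a peak in all 18 samples. Of 24 regions of MAP kinases, 1 was called by limma in the 5 comparisons, at the start site of Mapk3, which encodes an ERK and was higher in Aged Bleo than in Aged Sham by 14.5 points (adjusted p = 0.0218). This is 4.17% of the 24, against 0.0972% of all regions. By Fisher's exact test 1 lost peaks in Aged Sham (4.17% against 5.17%) and 2 gained them in Young Bleo (8.33% against 5.94%), each against Young Sham and with the shares of all regions taken over both directions. None of the 15 regions of MAP kinase kinases was called by either test in the 5 comparisons. Of 54 regions of MAP kinase kinase kinases, limma called 2 as lower in Aged Sham (3.70%, against 2.70% of all regions in either direction), 1 as lower in Young Bleo (1.85% against 3.38%) and 2 as lower in Aged Bleo (3.70% against 5.97%), each against Young Sham. By Fisher's exact test 2 (3.70% against 5.17%), 1 (1.85% against 5.94%) and 1 (1.85% against 3.21%) lost peaks in the same comparisons, and 1 gained them in Aged Bleo against Aged Sham (1.85% against 0.885%). An intronic region 201.4 kb from the start site of Map3k5, a kinase of the stress pathway, was among the limma calls each time and fell by 41.1 (adjusted p = 0.0148), 30.7 (adjusted p = 0.0474) and 35.8 points (adjusted p = 0.0123).

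Among the Sprouty and Spred genes, which encode feedback inhibitors of growth factor signaling, 5 of 44 regions gained peaks in Young Bleo against Young Sham by Fisher's exact test (11.4%, against 3.98% of all regions in this direction). None of them was called by limma. In the other direction, 2 of the 44 lost peaks in Aged Sham (4.55%, against 5.17% of all regions in either direction) and 1 in Aged Bleo (2.27% against 3.21%), each against Young Sham, and 1 in Aged Bleo against Young Bleo (2.27% against 2.57%). A region 117.3 kb from the Spry2 TSS was among these calls in all 3 comparisons, with a peak in 5 of 5 Young Sham, 3 of 4 Young Bleo, 1 of 4 Aged Sham and 0 of 5 Aged Bleo samples. In Aged Sham, Spry2 -2.1 kb fell by 14.5 points (limma adjusted p = 0.0134), which is 1 of 44 regions (2.27%, against 2.70% of all regions). Of 29 regions of atypical dual-specificity phosphatases, 0 were called in Aged Sham by either test. In Young Bleo 2 gained peaks by Fisher's exact test (6.90%, against 5.94% of all regions) and 1 other rose by limma (3.45% against 3.38%). In Aged Bleo 2 rose and 2 fell by limma (13.8% against 5.97%), each set against Young Sham. Of 16 mesenchymal marker regions, Fisher's exact test called 2 as lower in Aged Bleo than in Young Bleo (12.5% against 2.57%). By limma 1 was called (6.25% against 0.932%). Against Young Sham, Fisher's exact test called 1 as higher in Young Bleo (6.25%, against 5.94% of all regions in either direction). In the same comparison limma called 1 as higher (6.25% against 3.38%). Fisher's exact test called 1 as lower in Aged Sham than in Young Sham (6.25% against 5.17%). Of 11 epithelial regions, Fisher's exact test called 1 as lower in Aged Sham than in Young Sham (9.09% against 5.17%). By limma 1 was lower in Aged Bleo than in Young Sham (9.09% against 5.97%). The 4 leukocyte regions had a median difference of -25.4 points in Aged Sham (-4.13 for all regions).

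The genes whose mean percentile over their regions ran most like that of a member over the 18 samples were found among 3306 or 3307 genes with at least 5 regions. For Dusp6 they were Fgd6 and Nr2c1 (Spearman's rho = 0.977 and 0.973), for Dusp16 Mertk (0.971), for Dusp8 Cd47 (0.942), for Dusp4 Pcdh1 (0.938), for Dusp1 Ttc34 (0.934), for Dusp10 Amigo2 (0.932), for Dusp2 Ssh1 (0.901) and for Dusp5 Osbpl1a (0.868). These values describe samples that share their list lengths. The mean percentile was lowest in Aged Bleo 4, which had the shortest list, for Dusp1 (21.7), Dusp2 (11.5), Dusp6 (17.1) and Dusp16 (16).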

How the data were processed

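ECs of 18 mice (n = 4 or 5 per group) were profiled by ATAC-seq, with 1 deposited peak list per sample. The authors aligned reads to mm10 with BWA, marked duplicates with Picard and ran MACS2 on every sample separately (FDR 1%). Correction for the Tn5 offset and a control library are not given in the sources used here. The deposited columns hold a score (not used), fold enrichment over the local background (a ratio), -log10 p and -log10 q at the summit. Fragments at the summit were recovered from fold enrichment and -log10 p, and were whole within 0.005 for at least 99.989% of peaks with a -log10 p of at most 250.

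Lists held 21050 to 40883 peaks, 25 to 33 fragments at the median summit, and 19 mitochondrial peaks were left out. Peaks overlapping by 1 bp were merged into 54619 regions, of which 47338 with a peak in at least 2 lists were kept. Genes were taken from RefSeq GRCm38 transcripts, and promoters spanned 1000 bp before and 100 bp after a TSS. Presence was compared with two-sided Fisher's exact tests, strength with limma 3.58.1 (R 4.3.3) over all regions and groups, and regions with a peak per gene with exact permutation tests, each with Benjamini-Hochberg adjustment over all features (Python 3.11.15, scipy 1.17.1, pandas 2.3.3, numpy 2.4.6). The tests were checked on simulated data. The differential binding analysis of the study was not repeated, since it needs reads.

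The members and gene lists were chosen with earlier results of these data known. Regions are named when at a start site, called in a comparison, or the strongest distal region of a locus, and others that are named were chosen after their values were seen. Alternatives were other thresholds of peaks, equal list lengths, stricter overlap and consensus rules, -log10 p in place of fold enrichment, lane as a term, a replicate block and leaving out each sample. Lanes are those coded in the deposited list names. The lists give no uncertainty per peak, so precision rests on the spread between samples.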

Additional observations from a re-analysis of the deposited data

Results flagged for a closer look

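In 12 of 106 groups of samples examined, 1 sample stood apart from the others of its group by Dixon's criterion at the 95% level, a rule that chance meets in about 1 in 20 groups of continuous values. In 10 of the 12 the other samples were all equal, which sets the ratio at its maximum, so their number cannot be read against that rate. For the number of regions with a peak, Aged Sham 1 had 2 at Dusp4 against 3 in the other Aged Sham samples, and Young Bleo 1 had 8 at Dusp10 against 7 in the other Young Bleo samples. At Dusp8, Young Sham 5 had 4 against 5 and Aged Bleo 2 had 5 against 3. At Dusp16, Young Sham 5 had 3 against 5 and Young Bleo 1 had 3 against 4. Aged Bleo 2 has the longest list of all samples, and Young Sham 5 the shortest of its group.

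For the percentile of single regions, Aged Sham 2 stood at 83.0 at Dusp10 +226.9 kb, where the other Aged Sham samples were at 57.8 to 60.6. Young Sham 1 was the only sample of its group with a peak at Dusp10 +31.8 kb, at 13.6. Aged Bleo 2 was the only sample of its group with a peak at Dusp16 +40.9 kb (31.2), Dusp8 +15.7 kb (6.01) and Dusp8 -2.7 kb (1.11). At Dusp8 -2.7 kb, Young Bleo 3 stood at 6 and the other Young Bleo samples at 0.384 to 0.974.

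At Dusp5 -28.5 kb all Young Bleo samples lay below the mean of their sham group and all Aged Bleo samples above that of theirs. Young Bleo samples differed from the Young Sham mean by -37.7 to -2.19 percentile points, and Aged Bleo samples from the Aged Sham mean by 4.12 to 12.8 points. The interaction was 26.4 points with an unadjusted limma p of 0.0145, which did not pass adjustment over all regions (adjusted p = 0.525). Neither difference passed on its own, at -17.2 points in young (limma adjusted p = 0.201) and 9.22 points in aged mice (adjusted p = 0.770).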

How the results depend on the processing

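The number of the 56 regions called was small in every comparison, so that 1 region more or fewer moves it. By presence, 50% coverage of a region gave 4 calls for Aged Sham and for Aged Bleo against Young Sham, 2 for Aged Bleo against Aged Sham and 4 for Aged Bleo against Young Bleo. A fold enrichment of at least 5 gave 1 for Aged Bleo against Young Bleo, and equal list lengths 0 for Aged Bleo against Aged Sham. The replicate numbers did not pair the samples (3 of 25 pairs correlated above 0.1, range -0.30 to 0.28). With limma on presence and no replicate block there were 2, 8 and 2 calls for Aged Sham and Aged Bleo against Young Sham and Aged Bleo against Aged Sham, and with the replicate block 4, 7 and 2. By strength, the replicate block gave 1 call for Young Bleo against Young Sham. The percentile of -log10 p gave 1 call for Young Bleo and 4 for Aged Bleo against Young Sham and 2 for Aged Bleo against Young Bleo. Regions with a peak in all samples gave 0 in the 3 comparisons with Young Sham and 1 for Aged Bleo against Aged Sham, the Dusp1 TSS. Equal list lengths gave 1 for Aged Sham and 0 for Young Bleo, and lane as a term 0 in all 3 comparisons with Young Sham. In lists of at least 28000 peaks, an alternative chosen after seeing the data, presence gave 0 calls in the 4 comparisons with an aged group. Of the aged samples, Aged Sham 2 and 4 and Aged Bleo 1 to 3 were left. Between the aged groups, so few samples allow no call by Fisher's exact test, so nothing is concluded from that 0. In the other comparisons only a region with a peak in all samples of a group and in none of the other can be called. With these lists, strength gave 0 calls for Aged Sham against Young Sham.

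With each sample left out in turn, presence gave 0 to 1 calls for Aged Sham, 0 to 1 for Young Bleo and 2 to 4 for Aged Bleo against Young Sham, 0 to 1 for Aged Bleo against Aged Sham and 0 to 2 for Aged Bleo against Young Bleo. Strength gave 0 to 4, 0 to 3 and 1 to 3 for the 3 comparisons with Young Sham in the same order, 0 to 1 for Aged Bleo against Young Bleo and 0 to 1 for the interaction. The highest counts of the sham comparison and of Young Bleo by strength were without Young Sham 5. No difference followed singly under the alternatives changed its sign. Only those of called regions and of the region numbers of Dusp2 and Dusp8 were followed in this way. Several in presence fell to 0, namely with equal list lengths those of Dusp16 +40.9 kb (Young Bleo against Young Sham), Dusp6 -68.4 kb (Aged Bleo against both sham groups), Dusp8 -2.7 kb (Aged Sham against Young Sham) and Dusp8 +15.7 kb (Aged Bleo against Young Bleo), and with a fold enrichment of at least 5 both of Dusp8 -2.7 kb. Of 295 values of single regions and genes under the alternatives, 147 kept their side of the threshold and 148 lost it, and where a call was lost the cause was not tested. The presence calls of Dusp6 -68.4 kb and Dusp8 +15.7 kb in Aged Bleo against Young Sham held without any 1 sample. Each other presence call was lost in 8 of 9 such tests, in which fewer samples raise the smallest p. Depth limits what can be said of regions such as Dusp6 -68.4 kb, whose peaks rested on 10 to 16 fragments.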
